A study of Mus musculus with 8 samples.

Results

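Ccl3, Ccl4 and Ccr2 were followed molecule by molecule in 8 sections of mouse brain hemisphere bearing GL261 glioma. They are 3 of the 100 genes of a single-molecule fluorescence in situ hybridization panel, picked out by their names, and every deposited position that carries one of these names was used. The mice, implanted with cells of the GL261 glioma line, had been given 4 intracranial treatments and were killed on day 21. The 4 groups, with 2 sections each, received PBS, anti-PD1 (an antibody against the T cell checkpoint receptor PD-1), CpG-STAT3ASO (an antisense oligonucleotide against Stat3 joined to a CpG sequence, a type of ligand of the innate receptor TLR9), or CpG-STAT3ASO together with anti-PD1, called the combination here. No source used here gives strain, age, sex, dose or how many animals the sections came from, so p-values measure only the spread between these sections.

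Ccl3 and Ccl4 encode MIP-1alpha and MIP-1beta, secreted chemokines made by activated macrophages, microglia, T cells and NK cells. Ccl3 binds the receptor Ccr1. Ccr2 encodes the receptor for Ccl2 and related chemokines, and is known for bringing inflammatory monocytes from blood into tissue, including brain tumours. It is not the receptor of the other members. Ccr1 and Ccl2 were not analysed here.

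Ccl3 and Ccl4 are neighbours on mouse chromosome 11, where their RefSeq gene models overlap in part, and Ccr2 lies on chromosome 9. The 250 bases upstream of the annotated start of the inducible chemokine Ccl3 are shown because Ccl3 was called higher with CpG-STAT3ASO in every tissue class by share. They come from RefSeq (GRCm38.p6), run 5′ to 3′ along the gene at chr11:83649379-83649628 on the minus strand, and are all in lower case because no searched motif was found to capitalise. The RefSeq model of Ccl4 spans this stretch.
Ccl3: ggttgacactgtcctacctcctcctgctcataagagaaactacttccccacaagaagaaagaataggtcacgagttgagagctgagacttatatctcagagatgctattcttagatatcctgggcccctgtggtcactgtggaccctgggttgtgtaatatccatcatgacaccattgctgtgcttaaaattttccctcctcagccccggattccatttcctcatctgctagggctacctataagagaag
The 3 motif patterns were searched on both strands of this stretch and the next 50 bases. GGGNN followed by TTTCC (NF-kB type) was in 1.63% of 32851 promoters of the same length, TTCNNNGAA (STAT type) in 8.30% and TGANTCA (AP-1 type) in 7.81%. None of the 3 matched, which says only that these letters are not in this window.

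The total per section ran from 1669939 to 6995401 molecules, and 0.106 to 0.306% of them had a code named FP, read here as false positive. The highest of 28 FP codes had 3316 to 5348 molecules in a section, more than Ccl4 in every section, while their 90th percentile was 82.6 to 519 and below all members in every section. Levels are given as CPM, molecules of a gene per 1000000 panel molecules of the same section or tissue class. Tissue was divided into square bins of 360 pixels, and a bin with at least 20 molecules counted as tissue. Bins were called low (under 10 molecules of the proliferation genes Mki67 and Birc5 together), intermediate (10 to 99) or dense (100 or more). Sections without CpG-STAT3ASO had 714 to 1090 dense bins, against 23, 33, 22 and 78 in the sections given CpG-STAT3ASO, so dense-bin values of the latter rest on little tissue. Of the cell type lists, macrophage markers were 5 of 7 on the panel, none at 0. They summed to 19014 to 36693 CPM in sections given CpG-STAT3ASO and 4435 to 9333 in the others. That difference was carried by Cd68 (11305 to 23593 against 1802 to 5579) and Adgre1 (5876 to 11250 against 542 to 1086). The shares of Cd14, Msr1 and Mrc1 overlapped. T cell markers (3 of 5) summed to 13691 to 25284 against 2134 to 8691. Most of the T cell sum was Cd4, which macrophages and microglia can also carry (8839 to 24119 against 1845 to 8131 CPM). Cd8a did not overlap either (690 to 4674 against 222 to 607 CPM), while Cd3d, part of the T cell receptor complex, overlapped (56.5 to 178 against 35.2 to 85.6). Microglia markers (2 of 6) summed to 36715 to 69782 against 17592 to 27906 CPM, a difference carried by Csf1r (31140.5 to 57210.4 against 7535 to 13257), while Tmem119 overlapped (5574 to 12571 against 4334 to 19523). Monocyte markers on the panel came down to Ccr2 itself (1 of 4), and NK cell markers (2 of 4) ranged from 528 to 2471 against 573 to 1036. In tissue sections more cells of a type and more RNA per cell cannot be told apart, and the part of these cell types in the results below was not tested.

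Across whole sections, Ccl3 was higher in every section given CpG-STAT3ASO than in every section without it. Its share was 529 and 480 CPM with PBS and 335 and 321 with anti-PD1, against 2599.7 and 1671 in the CpG-STAT3ASO sections, and 1922 and 2009 for the combination. The means were 2050.4 ± 393 with CpG-STAT3ASO and 416 ± 104 without (SD, n = 4 each). Fitted over all 100 genes with limma, the average effect of CpG-STAT3ASO was a rise of 2.31 on the log2 scale of CPM + 1 (SE 0.397, adjusted p = 0.000262), or 4.97-fold. In this comparison 35% of all genes tested were called higher, so a call alone does not set Ccl3 apart, and the median change of all genes was 0.63.

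Ccl4 rose less. Its share was 269 and 221 CPM with PBS, 166 and 146 with anti-PD1, 522 and 380.0 for CpG-STAT3ASO alone, then 467 and 604 for the combination. The sections with and without CpG-STAT3ASO did not overlap. This also held for Cd4, Cd8a and Csf1r, though not for Cd3d and Tmem119. How many of all genes separate in this way was not counted, for Ccl4 or for Ccl3. The average effect was 1.31 (SE 0.480, adjusted p = 0.0355 by limma), where 35% of all genes were called higher. The Ccl4 call was lost when any one section other than combination replicate 1 was left out, with changes from 1.2 to 1.43.

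Ccr2 was the most uneven of the 3 between sections of 1 treatment. Its share was 519 and 233 CPM with PBS, 818 and 739 with anti-PD1, 3072 and 1151 for CpG-STAT3ASO alone, then 784 and 2129.5 for the combination. Combination replicate 1 thus lay below anti-PD1 replicate 1, and the sections with and without CpG-STAT3ASO overlapped. The average effect was 1.58 (SE 0.479, adjusted p = 0.0138 by limma), and it missed the threshold without CpG-STAT3ASO replicate 1 (1.23, adjusted p = 0.0971).

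**Figure D1:**
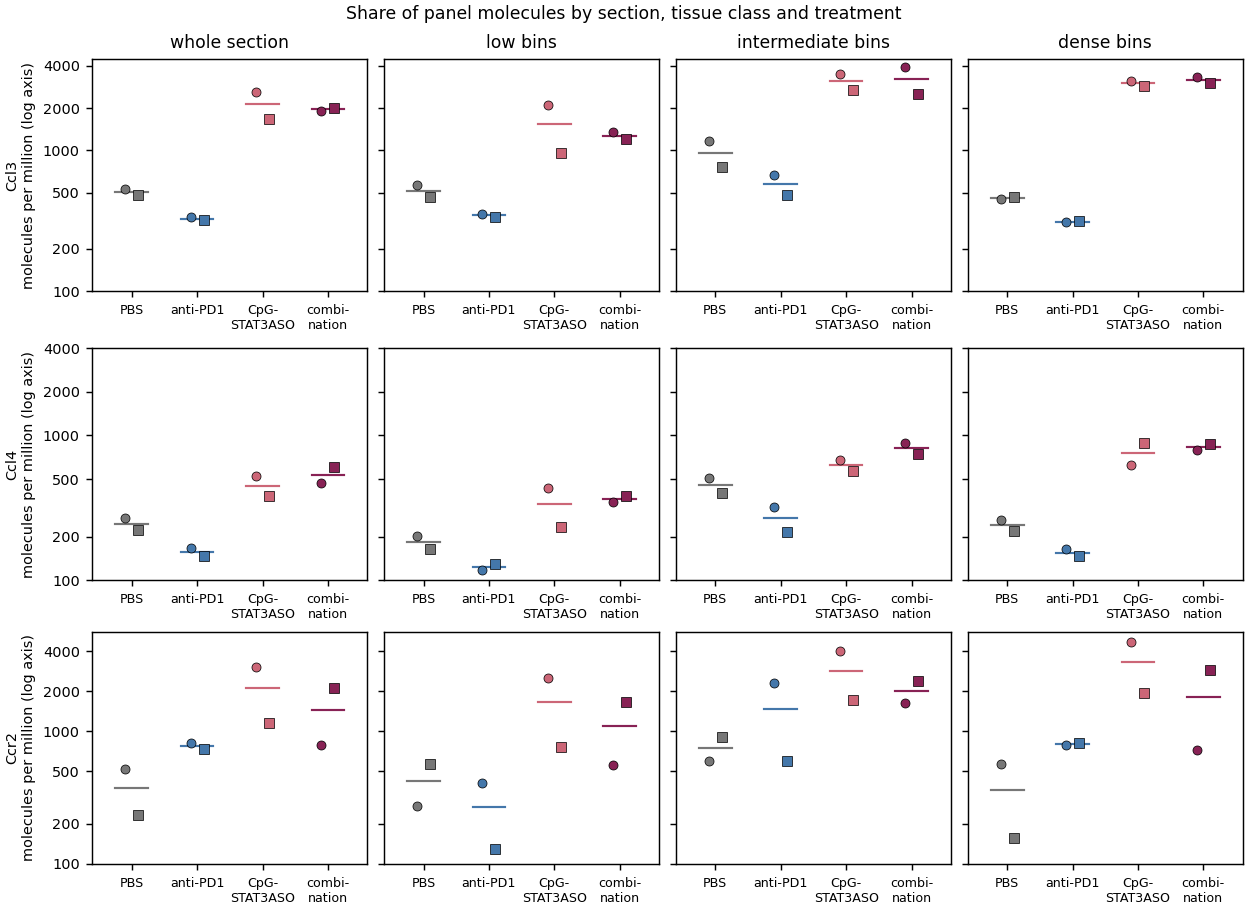
Molecules of Ccl3, Ccl4 and Ccr2 per 1000000 panel molecules (log axis) in each section, for the whole section and the low, intermediate and dense bins; circles are replicate 1, squares replicate 2 and bars the mean of 2 sections. Ccl3 of the sections given CpG-STAT3ASO lies above that of the others in every panel, and Ccr2 overlaps.

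These are shares of the panel, and the panel total itself was lower in sections given CpG-STAT3ASO. Counted per tissue bin, Ccl3 was at 0.998, 1.56, 0.999 and 0.865 molecules in the sections without CpG-STAT3ASO and at 1.85, 1.84, 1.47 and 3.28 in those with it, an average change of 0.90 that did not pass (adjusted p = 0.114 by limma). Per bin, Ccl4 changed by -0.09 (adjusted p = 0.877) and Ccr2 by 0.17 (adjusted p = 0.826), whereas the median of all genes moved from 0.63 to -0.77. Scaling by median-of-ratios size factors put that median at -0.04 and kept the Ccl3 call (1.63, adjusted p = 0.00411) but not those of Ccl4 (0.63, adjusted p = 0.293) and Ccr2 (0.90, adjusted p = 0.133). Over all genes, 35 higher and 8 lower calls by share became 18 and 16 by size factors and 2 and 29 per bin.

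Between single treatments, Ccl3 was higher with CpG-STAT3ASO than with PBS by 2.05 (SE 0.561, adjusted p = 0.0161), higher with the combination than with PBS by 1.96 (adjusted p = 0.0207), and higher with the combination than with anti-PD1 by 2.58 (adjusted p = 0.00346). The shares of all genes called higher in these comparisons were 21, 14 and 23%. The first call was lost without PBS replicate 2 (adjusted p = 0.183) or CpG-STAT3ASO replicate 1 (adjusted p = 0.174), and the second without PBS replicate 1 (0.0632), PBS replicate 2 (0.202) or combination replicate 1 (0.0676). Per bin neither passed (0.57, adjusted p = 0.463, and 0.82, adjusted p = 0.381), nor did combination against anti-PD1 (1.24, adjusted p = 0.151), and by size factors the first and second were lost as well (1.37, adjusted p = 0.0832, and 1.29, adjusted p = 0.136). Ccr2 was higher with CpG-STAT3ASO than with PBS by 2.43 (SE 0.678, adjusted p = 0.0170), a call also lost without PBS replicate 2 (adjusted p = 0.184) or CpG-STAT3ASO replicate 1 (adjusted p = 0.197), per bin (0.95, adjusted p = 0.430) or by size factors (1.76, adjusted p = 0.0733). Its difference of 1.89 between combination and PBS missed the threshold (adjusted p = 0.0540), and so did those of Ccl4 from PBS (0.87, adjusted p = 0.377, and 1.12, adjusted p = 0.266). Both comparisons with PBS share the PBS sections, and both with the combination share its sections.

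Anti-PD1 alone gave no called change in the members. Against PBS, Ccl3 differed by -0.62 (95% interval -1.80 to 0.56), Ccl4 by -0.64 (-2.07 to 0.79) and Ccr2 by 1.16 (-0.27 to 2.59), each with an adjusted p of 0.975, in a comparison where 1% of all genes was called in either direction. For Ccl3 and Ccl4 both anti-PD1 sections lay below both PBS sections, and for Ccr2 both lay above. How many of all genes show such an order between 2 and 2 sections was not counted, so it is not read as an effect. Adding anti-PD1 to CpG-STAT3ASO moved Ccl3 by -0.09 (-1.27 to 1.10), Ccl4 by 0.25 (-1.18 to 1.68) and Ccr2 by -0.54 (-1.97 to 0.89), with adjusted p = 0.995 for each. The interaction of both agents was -1.70 for Ccr2 (SE 0.958, unadjusted p = 0.0940, adjusted p = 0.955).

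**Figure D2:**
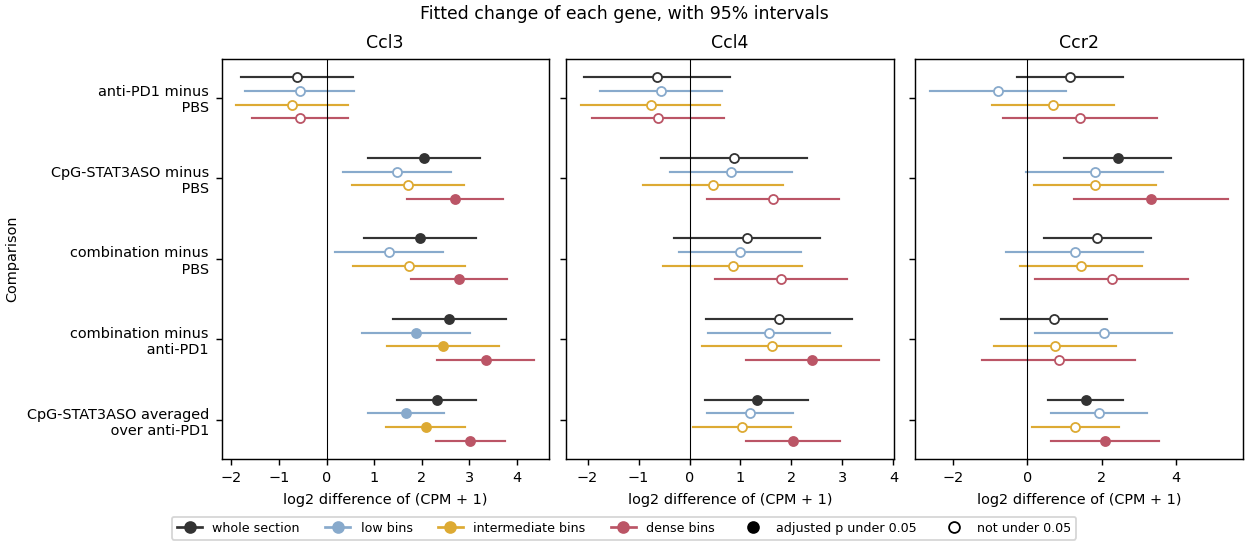
Fitted log2 difference of CPM + 1 for each member (panels), comparison (rows) and tissue class (colours), with 95% intervals; filled points have an adjusted p under 0.05. All 4 average effects of CpG-STAT3ASO on Ccl3 are filled, from 1.67 in low bins to 3.02 in dense bins, and no change between anti-PD1 and PBS is.

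Within each tissue class Ccl3 was again higher in the sections given CpG-STAT3ASO. In low bins, where proliferation genes were sparse, Ccl3 was at 569 and 465 CPM with PBS, 355 and 339 with anti-PD1, 2118 and 963 for CpG-STAT3ASO alone, then 1349 and 1201 for the combination. It was higher in all 4 sections given CpG-STAT3ASO, by 1.67 on average (SE 0.360, adjusted p = 0.0190), where 9.18% of all genes were called higher. Counted per bin, the sections without CpG-STAT3ASO had 0.363, 0.356, 0.258 and 0.217 Ccl3 molecules and those with it 1.34, 0.885, 0.956 and 1.54, a change of 1.98 (adjusted p = 0.00652).

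The low-bin call by share was lost without CpG-STAT3ASO replicate 1 (1.39, adjusted p = 0.0620) or anti-PD1 replicate 2 (1.66, adjusted p = 0.0539), and by size factors (1.24, adjusted p = 0.109), with bins of 720 pixels (1.41) or with low bins under 5 (1.35). Ccl4 differed by 1.18 in low bins (adjusted p = 0.0718) and Ccr2 by 1.94 (adjusted p = 0.0640), neither past the threshold. Per bin, Ccl4 passed (1.49, adjusted p = 0.0332). Between the combination and anti-PD1, Ccl3 passed in low bins (1.87, adjusted p = 0.0476, with 10.2% of all genes called higher) but in none of the 8 fits that left out 1 section.

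In intermediate bins Ccl3 was at 1159 and 765 CPM with PBS, 673 and 485 with anti-PD1, 3489 and 2704 for CpG-STAT3ASO alone, then 3926 and 2504 for the combination. The change was 2.08 (SE 0.371, adjusted p = 0.00843), where 4.21% of all genes were called higher, and per bin it was 2.23 (adjusted p = 0.0244). The call by share was lost without PBS replicate 2 (adjusted p = 0.0526) or combination replicate 1 (adjusted p = 0.0597). Between the combination and anti-PD1 the change was 2.45 (adjusted p = 0.0360), with 5.26% called higher, and the call was lost without anti-PD1 replicate 2 (0.169), combination replicate 1 (0.230) or combination replicate 2 (0.0891). Ccl4 and Ccr2 differed by 1.03 and 1.30 on average, with adjusted p = 0.160 for both.

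In dense bins, where proliferation genes were most abundant, Ccl3 was at 453, 467, 310.4 and 314 CPM in the sections without CpG-STAT3ASO and at 3138, 2857, 3347 and 3016 in those with it. The latter values lay close together although they rest on 105, 239, 97 and 606 molecules. The change was 3.02 (SE 0.309, adjusted p = 0.000680), or 8.12-fold, where 31.6% of all genes were called higher. Per bin it was 1.48 (adjusted p = 0.0255).

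Ccl4 in dense bins was at 260.2, 219, 164 and 147 CPM without CpG-STAT3ASO and at 628, 885, 794 and 866 with it, the latter from 21, 74, 23 and 174 molecules. It rose by 2.03 (SE 0.394, adjusted p = 0.00608), and per bin by only 0.49 (adjusted p = 0.542). Ccr2 in dense bins was at 569, 158, 789 and 820.3 CPM without and at 4692, 1948, 725 and 2896 with CpG-STAT3ASO, so the sides overlapped. Its change of 2.09 (SE 0.627, adjusted p = 0.0379) was lost without PBS replicate 2 (0.124), anti-PD1 replicate 1 (0.0803), anti-PD1 replicate 2 (0.0988) or combination replicate 2 (0.0895).

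Between single treatments in dense bins, Ccl3 passed with CpG-STAT3ASO against PBS (2.70, adjusted p = 0.0108, 25.5% of all genes called higher), with the combination against PBS (2.78, adjusted p = 0.00885, 19.4%) and with the combination against anti-PD1 (3.34, adjusted p = 0.00393, 20.4%). Ccr2 passed in the first of these (3.33, adjusted p = 0.0363) and Ccl4 in the last (2.41, adjusted p = 0.0217). The first Ccl3 call was lost without PBS replicate 2 (0.0731), the second without PBS replicate 2 (0.0625) or combination replicate 1 (0.0633), and none of the 3 passed per bin (adjusted p = 0.185, 0.145 and 0.0687). The Ccr2 call was lost without PBS replicate 2 (0.208), anti-PD1 replicate 1 (0.0542) or CpG-STAT3ASO replicate 1 (0.0605), and the Ccl4 call without any one of the 4 sections it compares (0.0739 to 0.103).

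**Figure D3:**
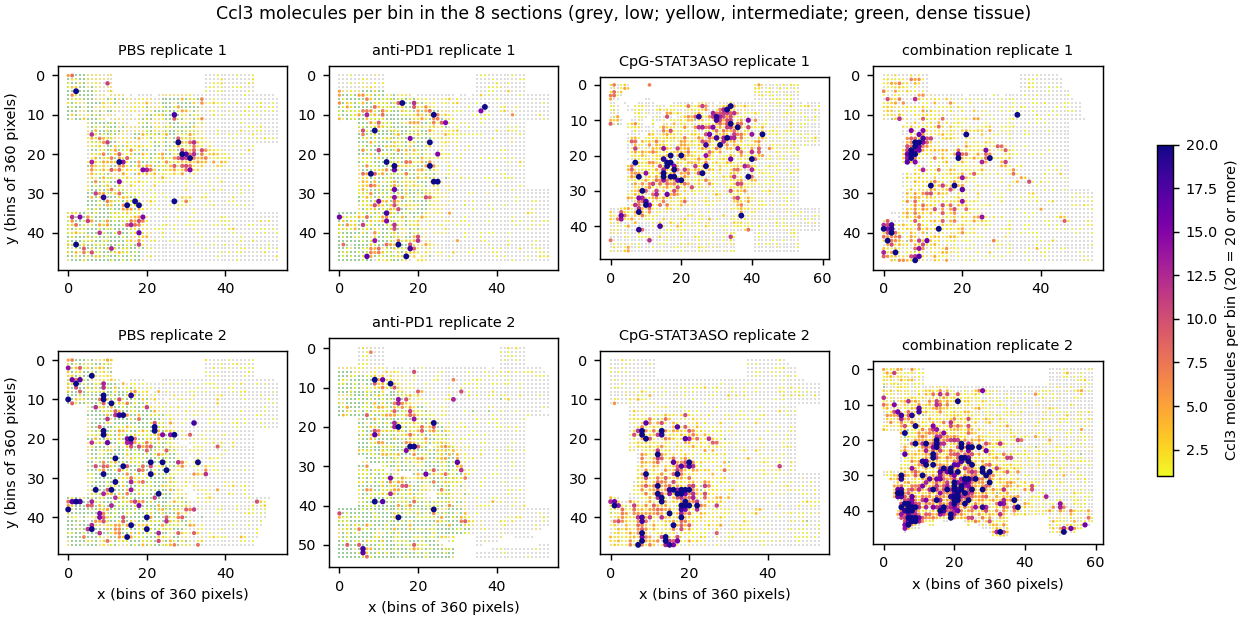
Ccl3 molecules per bin (coloured points, 20 standing for 20 or more) over low (grey), intermediate (yellow) and dense (green) tissue bins, with x and y in bins of 360 pixels, for all 8 sections. Dense bins hold 63.8 to 84.7% of Ccl3 molecules in the sections without CpG-STAT3ASO and 2.43 to 7.69% in those with it. They likewise hold most molecules of the whole panel in the former and few in the latter.

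Where in the section the molecules lay also differed. Dense bins held 63.8, 82.8, 76.1 and 84.7% of all Ccl3 molecules in the sections without CpG-STAT3ASO, and 2.43, 5.89, 3.03 and 7.69% in those with it. Intermediate bins held 44.7, 59.7, 42.7 and 68.4% of Ccl3 in the latter, and low bins 52.7, 34.4, 54.3 and 23.9%. Dense bins were 32.2 to 46.2% of tissue bins without and 0.983 to 3.24% with CpG-STAT3ASO, and intermediate bins 15.4 to 45.9% with it. Molecules of all panel genes shifted likewise, so the difference was not particular to Ccl3. Without CpG-STAT3ASO dense bins held 3117240 of 4189535, 5945433 of 6987530, 5450227 of 6645105 and 5507913 of 6361548 panel molecules. With it they held 33460 of 1664837, 83660 of 2426531, 28983 of 1665452 and 200942 of 3922990.

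Within the 4 sections without CpG-STAT3ASO the share of no member differed between dense and low bins past the threshold, in a comparison where 56.1% of all genes did. Ccl3 differed by -0.33, 0.01, -0.19 and -0.11 in PBS replicates 1 and 2 and anti-PD1 replicates 1 and 2 (mean -0.16, SE 0.233, adjusted p = 0.645). Ccl4 was higher in dense bins in all 4 sections, by 0.36, 0.42, 0.47 and 0.18 (mean 0.36, SE 0.257, adjusted p = 0.296). The median of all genes in these sections was 0.40, -0.52, 0.39 and 0.47, above Ccl4 in PBS replicate 1 and anti-PD1 replicate 2. Ccr2 went both ways, with 1.05, -1.84, 0.95 and 2.66 (mean 0.71, SE 0.681, adjusted p = 0.442), PBS replicate 2 being the one section where it was richer outside. Per bin all 3 were higher in dense tissue, where bins hold more molecules of any kind: Ccl3 by 2.83, Ccl4 by 3.33 and Ccr2 by 3.69.

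The Ccl3 contrast between dense and low bins was itself larger in the sections given CpG-STAT3ASO, at 0.57, 1.57, 1.31 and 1.33. The median of all genes there was 0.51, 0.59, 0.39 and 0.45. The Ccl3 difference from the other sections was 1.35 (SE 0.317, adjusted p = 0.0102 by limma), where 23.5% of all genes had a higher contrast. It stayed between 1.22 and 1.56 with each section left out. By size factors it was 0.90 (adjusted p = 0.0971), and per bin it turned to -0.49 (adjusted p = 0.276). Ccl4 differed by 0.84 (adjusted p = 0.155) and Ccr2 by 0.15 (adjusted p = 0.899).

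Just outside dense tissue, all 3 genes were at higher levels by share than far from it. In the 4 sections without CpG-STAT3ASO, the zone 1 to 3 bins outside dense tissue held Ccl4 at 487, 351, 258 and 172 CPM, against 97.6, 86.7, 133 and 80.8 at 10 or more bins outside. Ccl3 was at 1143, 734, 566 and 382 CPM in the near zone and at 387, 367, 433 and 261 in the far one. Ccr2 was at 651, 1025, 2177 and 344 CPM near and at 120, 431, 111 and 137 far, with the widest gap in anti-PD1 replicate 1. The near zone was the higher one in all 4 sections for each gene. Inside the mass, 4 or more bins from its edge, Ccl3 was at 209, 237 and 276 CPM in the first 3 of these sections. This share was below that of their near zone, while in anti-PD1 replicate 2 the share deep inside was the higher one. The zones are given by share only, and dense bins hold more molecules of any kind. Per bin, Ccl3 was at 1.98, 2.88, 2.05 and 1.59 in dense and at 1.13, 1.05, 1.03 and 0.427 in intermediate bins. The macrophage genes were not higher by share near dense tissue in every section: the log2 ratio of near to far was 0.81, -0.70, -0.37 and 0.37 for Cd68 and 0.67, -0.88, 0.33 and 0.12 for Adgre1. Cd8a was higher near dense tissue in all 4 sections too (1.53, 0.29, 2.19 and 1.66), and Tmem119 in 3 of 4 (0.37, -0.46, 0.44 and 1.03). These zones rest on 28 to 170 bins deep inside and are given without a test. They were tallied only for the genes named here, so how common such a gap is on the panel is not known.

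Adgre1 (F4/80), a macrophage gene, was higher by share with CpG-STAT3ASO, as Ccl3 was, in a comparison where 35% of all genes were called higher. Its share was 738 ± 240.2 CPM without and 8126 ± 2318 with CpG-STAT3ASO (SD, n = 4 each). Set against molecules of Adgre1, Cd68 (a lysosomal macrophage protein) and Tmem119 (a microglial marker) together, Ccl3 in low bins had log2 ratios of -4.95, -5.27, -5.26 and -5.60 without CpG-STAT3ASO and -4.14, -4.40, -4.80 and -4.27 with it. The sides did not overlap, and the difference was 0.87 (exact permutation test of sections, p = 0.0286, the smallest that 4 against 4 allows, and 0.114 after Benjamini-Hochberg adjustment over 6 such tests). Over the whole section the difference was 1.15 for Ccl3 (p = 0.0571, adjusted 0.114), 0.16 for Ccl4 (p = 0.743) and 0.42 for Ccr2 (p = 0.486, exact permutation tests). None of the 6 passed after adjustment, which 1 test by itself could not do. How many other genes separate per myeloid molecule was not counted. The direction depended on the marker used. Against Adgre1 alone the whole-section difference was -1.15 for Ccl3, -2.15 for Ccl4 and -1.89 for Ccr2 (adjusted p = 0.0571 for each, exact permutation tests). Against Cd68 alone it was -0.29, -1.29 and -1.03, and against Tmem119 alone 2.59, 1.59 and 1.85. In low bins the Ccl3 difference was -0.30 against Adgre1 alone (adjusted p = 0.240, exact permutation test).

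Ccl3 and Ccl4 did not move in one ratio. Sections held 1.97, 2.17, 2.02 and 2.19 Ccl3 molecules per Ccl4 molecule with PBS and anti-PD1, against 4.98 and 4.40 for CpG-STAT3ASO alone, then 4.11 and 3.33 for the combination. Within a section this number also depends on the probes of each gene, so only its difference between sections is read. On the log2 scale that difference was 0.998 (exact permutation test, p = 0.0286 before and after adjustment over 4 tissue classes, 4 against 4 sections), and this ratio was chosen after its values were seen.

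The ratio separated the sections in each tissue class as well. In low bins it was 2.62 to 3.01 without and 3.14 to 4.86 with CpG-STAT3ASO, in intermediate bins 1.92 to 2.28 against 3.38 to 5.16, and in dense bins 1.74 to 2.14 against 3.23 to 5.0. In low bins the test missed the threshold when any one of the 4 sections without CpG-STAT3ASO was left out (exact permutation p = 0.0571). With the 90th percentile of the FP codes taken off both genes, the whole-section ratio was 2.39 to 2.79 against 3.61 to 5.40. Such separation was common on this panel: the ratios of 35.3% of all 4950 gene pairs did not overlap between sections with and without CpG-STAT3ASO.

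**Figure D4:**
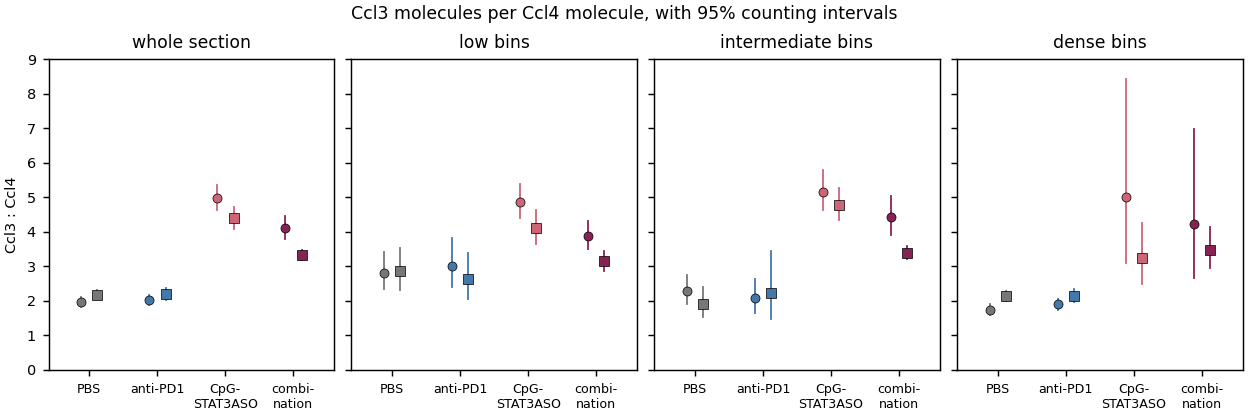
Ccl3 molecules per Ccl4 molecule in each section, for the whole section and each tissue class, with 95% Clopper-Pearson intervals that cover counting error only; circles are replicate 1 and squares replicate 2. The sections given CpG-STAT3ASO lie above the others in all 4 panels, with wide intervals in dense bins.

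Within 100 pixels, Ccl3 and Ccl4 molecules lay next to each other. Closeness is the log2 density of a partner within 100 pixels of a gene's molecules over its density in a ring of 400 to 600 pixels, minus the same for all panel molecules. Around Ccl3 molecules the closeness of Ccl4 was 2.67, 4.02, 3.62 and 2.70 in the sections without CpG-STAT3ASO and 2.65, 2.36, 1.71 and 1.49 in those with it. It was above 0 in all 8 sections, with a median of 0.09 over all 100 panel genes as centre. Of Ccl4 molecules, 60.7 to 76.4% had a Ccl3 molecule within 100 pixels without CpG-STAT3ASO and 70.3 to 83.7% with it, against a panel median of 20.5 to 24.8% and 32.2 to 42.0%. Within 20 pixels this was 22.3 to 49.9% in the sections without CpG-STAT3ASO.

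Ccl3 molecules were also clustered with each other. The closeness of Ccl3 to other Ccl3 was 2.73, 4.46, 3.95 and 3.34 without CpG-STAT3ASO and 2.42, 2.44, 1.86 and 1.64 with it, and the richest 1% of tissue bins held 13.7 to 27.4% of all Ccl3 molecules of a section. For Ccl4 that share was 18.8 to 30.8% and for Ccr2 7.14 to 23.7%. None of these shares differed between sections with and without CpG-STAT3ASO past the threshold over 12 clustering tests (adjusted p = 0.411 for Ccl3 and 0.814 for Ccl4 and Ccr2, exact permutation tests).

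Ccr2 molecules were about as close to this pair as the median panel gene. Their closeness to Ccl3 was 0.11 on average (-0.31 to 0.49) and to Ccl4 0.09 (-0.20 to 0.54), beside medians of 0.09 over all panel genes as centre. They clustered with each other, at 1.48, 2.63, 1.25 and 0.72 without and 1.54, 2.03, 2.92 and 1.63 with CpG-STAT3ASO. At least 4 other Ccr2 molecules lay within 100 pixels of 21.4, 25.8, 45.2 and 23.0% of Ccr2 molecules without CpG-STAT3ASO and of 72.4, 49.1, 51.8 and 57.6% with it, sides that did not overlap (exact permutation p = 0.0286, adjusted p = 0.171). That missed the threshold after adjustment over 12 tests, which 1 test at this smallest possible p could not pass by itself. How many other panel genes separate in the same share was not counted, so it is not read as a trait of Ccr2.

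Of the 4 cell markers, Cd8a, the coreceptor of cytotoxic T cells, showed the largest difference in closeness around Ccl3 and around Ccl4. Around Ccl3 molecules it was 0.79, 0.82, 0.57 and 2.01 without CpG-STAT3ASO and -0.09, 0.26, 0.17 and 0.03 with it, without overlap (difference -0.96, exact permutation p = 0.0286, adjusted p = 0.171 over 12 tests). Around Ccl4 molecules it was 1.54, 0.79, 1.16 and 1.82 against 0.84, 0.60, 0.43 and 0.37 (p = 0.0571, adjusted p = 0.171, exact permutation test). None of the 12 closeness tests passed after adjustment. The smallest exact permutation p that 4 against 4 sections allow is 0.0286, and 1 pair by itself could not pass with it over 12 tests. These misses therefore do not show that closeness was alike. How many other panel genes as centre separate in this way was not counted.

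Adgre1 was close to both chemokines in all 8 sections, at 0.22 to 0.58 around Ccl3 and 0.23 to 0.47 around Ccl4, against a panel median of -0.14, and it did not differ past the threshold (adjusted p = 0.429 and 1). An Adgre1 molecule lay within 100 pixels of 44.8 to 63.1% of Ccl3 molecules without and 86.5 to 95.6% with CpG-STAT3ASO, beside panel medians of 36.4 to 52.3% and 72.2 to 80.6%. Cd68 was also close, at 0.05 to 0.38 around Ccl3 and 0.02 to 0.48 around Ccl4. Tmem119 varied in sign, from -0.40 to 0.27 around Ccl3. Around Ccr2, closeness was -0.37 to 0.24 for Adgre1, -0.31 to 0.17 for Cd68, -0.71 to 0.09 for Tmem119 and 0.03 to 1.02 for Cd8a.

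**Figure D5:**
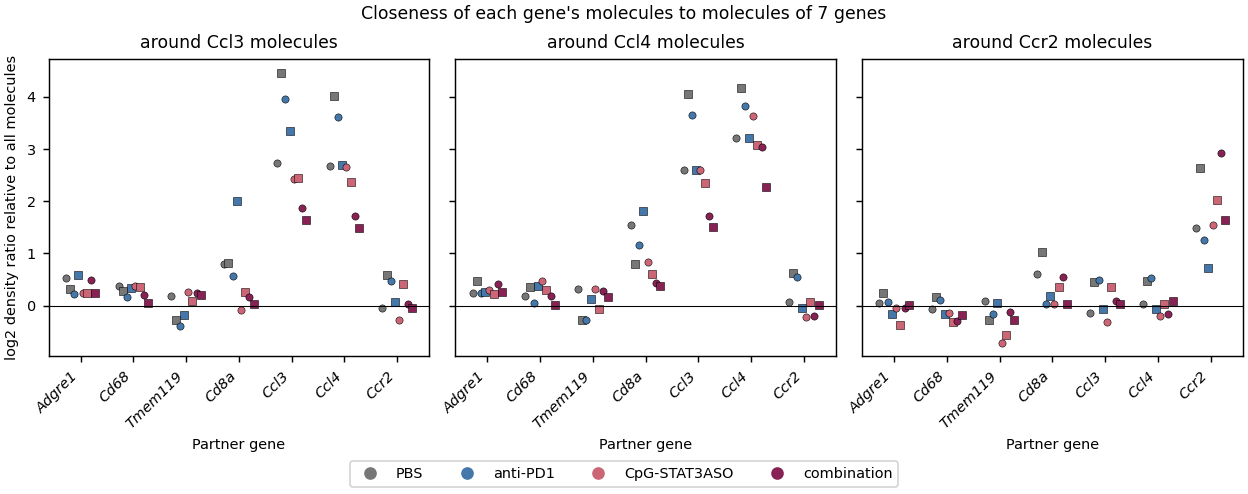
Closeness (log2 density ratio relative to all panel molecules) of 7 partner genes around Ccl3, Ccl4 and Ccr2 molecules, one point per section, coloured by treatment; circles are replicate 1 and squares replicate 2. Ccl3 and Ccl4 stand at 1.49 or higher around each other in all 8 sections, while around Ccr2 only Ccr2 itself stands at 0.72 or higher in every section.

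With each panel gene as centre in turn, the genes with the highest closeness of Ccl3 around their molecules were Ccl4 (mean 2.63), Ifng (1.60), Tnf (1.14), Prf1 (0.996) and Gzma (0.89), that is, a chemokine, the cytokines interferon-gamma and TNF, and the cytotoxic proteins perforin and granzyme A. For Ccl4 they were Ccl3 (2.65), Ifng (2.0), Gzma (1.58), Gzmb (1.31) and Prf1 (1.27). For Ccr2 they included Gzmc (1.08), Gzma (0.92), Klrb1c (0.92) and Klrd1 (0.88), that is, granzymes and NK lectin receptors. These are means over 8 sections, and some genes had values below 0 in single sections, such as Ccl3 around Ifng (-0.26 to 3.36). Of the genes named for Ccr2, Gzmc lay below the 90th percentile of the FP codes in every CpG-STAT3ASO section but combination replicate 2. It also lay below in PBS replicate 1 and anti-PD1 replicate 1. Klrb1c was at or below that level in all sections given CpG-STAT3ASO and Klrd1 below it in both PBS sections. Gzma was above it in every section.

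Over whole bins the likeness was of another kind. The Pearson correlation of log2(molecules + 1) with Ccl3 across tissue bins, averaged over 8 sections, was 0.594 for Ccl4, 0.491 for Csf2rb, 0.488 for Tgfb1, 0.483 for Ptprc and 0.478 for Ccl5, against a median of 0.242 over all genes. With Ccl4 it was 0.594 for Ccl3, 0.397 for Tnf, 0.388 for Tgfb1, 0.387 for Ptprc and 0.387 for Csf2rb (median 0.212). With Ccr2 it was 0.609 for Tgfbi, 0.559 for Ptprc, 0.545 for Cd74, 0.539 for Csf2rb and 0.533 for Tgfb1 (median 0.301). Ptprc (CD45) and Csf2rb, a shared cytokine receptor chain, are carried by leukocytes, and Cd74 is the MHC class II invariant chain. Bins of a section share its staining and differ in total molecules, which raises all of these correlations, and they are descriptions.

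Of a list of 42 chemokines and chemokine receptors, 9 were on the panel. Over whole sections 5 rose with CpG-STAT3ASO, 1 fell and 3 did not pass, with a median change of 1.31 beside 0.63 over all genes, of which 35% were called higher and 8% lower. Besides the 3 members, Ccl5, a T cell and macrophage chemokine, rose by 3.35 (adjusted p = 1.44e-05) and Ccl22, a dendritic cell and macrophage chemokine, by 2.45 (adjusted p = 0.00485). Cxcl10, an interferon-induced chemokine, fell by 2.59 (adjusted p = 0.00189). Ccr7, Cxcl9 and Xcr1 did not pass, at 0.88 (adjusted p = 0.245), -0.61 (0.568) and -0.51 (0.474). In low bins 3 rose (Ccl3, Ccl5 and Ccl22), in intermediate bins 2 (Ccl3 and Ccl5) and in dense bins 5 (the members, Ccl5 and Ccl22), and none fell past the threshold in a bin class. The shares of all genes called higher there were 9.18, 4.21 and 31.6%. Counted per bin, none of the 9 passed as higher over whole sections and Cxcl10 as lower, where 2 of 100 genes were higher and 29 lower, while 4 rose in low bins (Ccl3, Ccl4, Ccl5 and Ccl22, with 16 of 98 genes), 1 in intermediate bins (Ccl3, with 3 of 95) and 2 in dense bins (Ccl3 and Ccl5, with 11 of 98). By share, Ccl3 and Ccl5 were the members of the list called in all 3 bin classes, and per bin Ccl3 alone.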

How the data were processed

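Each deposited file lists molecules of 1 section, with x, y and z position and target name, from Resolve single-molecule FISH per the labels. Seurat 4.2.0 appears in the submitters' processing notes, with no role stated. Spot caller, registration, pixel size and the meaning of FP codes were not given in the sources used here. Distances are in pixels. Molecules were tallied per gene, section and bin by script, and no value was normalized by the authors as far as the labels say. Depth limits precision most in dense bins, where tallies go down to 21 molecules; the smallest over a whole section was 778.

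Log2(CPM + 1) of genes averaging 10 molecules or more per section was fitted with limma 3.58.1 (lmFit, eBayes with trend; R 4.3.3) with 4 group means. Adjusted p-values are Benjamini-Hochberg values over all genes of a fit, with a threshold of 0.05, two-sided. Dense and low bins were compared as differences within sections. Closeness counted molecules on a raster of 10 pixels with 0.5 added to each tally. Closeness, clustering and ratios were compared by two-sided exact permutation of sections (70 assignments, numpy 2.4.6). The fits and closeness were tested on simulated data. Alternatives were the pseudocount (10), the filter (50 or none), 2 scalings, voom, eBayes without trend, 2 groups, a replicate block, bin size (180, 720), class limits, radius, ring and each section left out.

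The members, lists and tests were chosen with earlier results of these data known. Named genes are the members, their 4 partners, the measured chemokines and, per member, the 5 genes highest in bin correlation and in closeness. One gene that this rule names is not reported here. Promoters come from RefSeq. That of Ccl4 was not used here.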

Additional observations from a re-analysis of the deposited data

Results flagged for a closer look

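With Dixon's test on 48 sets of 4 sections (each member by CPM and by molecules per bin, in each tissue class), 3 values lay far from the others of their set. Chance flags about 1 in 20 such sets. Anti-PD1 replicate 2 had 0.427 Ccl3 and 0.191 Ccl4 molecules per intermediate bin, below the other sections without CpG-STAT3ASO. Combination replicate 2 had 0.985 Ccl4 molecules per tissue bin over the whole section, above the other sections given CpG-STAT3ASO. The contrast of Ccl3 between dense and low bins differed between sections with and without CpG-STAT3ASO by 1.35 on the log2 scale, as tested by limma in the report.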

How the results depend on the processing

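Of 1689 alternatives over all results, 1512 kept direction and side of the threshold and 62 turned the direction. In 59 of the 62 the value was past the threshold in neither setting, and the other 3 came from counting molecules per tissue bin. On that scale the average CpG-STAT3ASO effect over whole sections was 0.90 for Ccl3, -0.094 for Ccl4 and 0.17 for Ccr2. Against PBS it was 0.57 for Ccl3 and 0.95 for Ccr2, for the combination 0.82 for Ccl3, and against anti-PD1 1.24. Per bin the average effect was 1.49 for Ccl4 in low bins, now past the threshold, and 0.49 for Ccl4 and 0.55 for Ccr2 in dense bins. Dense minus low was 2.83 for Ccl3, 3.33 for Ccl4 and 3.69 for Ccr2, and its Ccl3 difference between sections -0.49. Panel totals per bin differ between dense and low tissue and between sections, which is the difference between both scales. Size factors gave calls past the threshold no longer for Ccl4 (0.63 whole, 0.89 dense), Ccr2 (0.90 whole, 0.95 dense, 1.76 against PBS) and Ccl3 (1.37 and 1.29 against PBS, 1.24 in low bins, 0.90 between dense and low). The Ccl3 effect in low bins missed the threshold with 720-pixel bins (1.41) or low bins under 5 (1.35). Passing only elsewhere were Ccr2 for combination minus PBS by voom (2.15), Ccl4 for combination minus anti-PD1 without trend (1.76), Ccr2 in intermediate bins of 180 pixels (1.44) or with dense from 200 (1.48), and Ccl4 dense minus low over all 8 sections (0.78). Where a call changed with a setting, the cause was not tested.

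Turned in direction without a call were, per bin, Ccl4 against PBS (-0.61 for CpG-STAT3ASO, -0.022 for the combination), Ccr2 for combination minus anti-PD1 (-0.61 whole, -0.80 dense), Ccl3 for combination minus CpG-STAT3ASO (0.25), Ccl4 for anti-PD1 on average (0.072), and the difference between dense and low for Ccl4 (-1.0) and Ccr2 (-1.69). By size factors they were Ccr2 in dense bins for combination minus anti-PD1 (-0.17) and its dense-low difference (-0.29, and -0.072 with 180-pixel bins). Ccl3 dense minus low was 0.52 over all 8 sections. Per Adgre1 molecule the differences were -1.15 (Ccl3), -2.15 (Ccl4) and -1.89 (Ccr2) over whole sections and -0.30, -0.79 and -0.034 in low bins, and per Cd68 molecule -0.29, -1.29 and -1.03 over whole sections. Differences in closeness became 0.19 (Ccl3 to Adgre1), 0.26 (Ccl3 to Cd68), 0.29 (Ccl4 to Adgre1) and 0.050 (Ccr2 to Adgre1) from the density of the partner alone, 0.029 (Ccl3 to Cd68) and 0.053 (Ccl4 to Adgre1) at 200 pixels, and for Ccl4 to Cd68 -0.17 at 50 pixels and -0.071 with a ring of 200 to 300 pixels. The share of molecules with others nearby differed by -3.65 points (Ccl3 with Ccl3) and 0.861 points (Ccl3 with Ccr2) at 50 pixels and 1.25 points (Ccl4 with Ccl4) at 200 pixels.

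With each section left out, effects ranged from 1.2 to 1.43 for Ccl4 and 1.22 to 1.94 for Ccr2 over whole sections, 1.73 to 2.37 (Ccl3) and 1.72 to 3.14 (Ccr2) for CpG-STAT3ASO minus PBS, and 1.89 to 2.03 (Ccl3) and 1.17 to 2.61 (Ccr2) for combination minus PBS. They ranged from 1.39 to 1.96 (Ccl3) and 1.5 to 2.37 (Ccr2) in low bins, 1.92 to 2.24 (Ccl3) and 0.80 to 1.79 (Ccr2) in intermediate bins, 1.59 to 2.59 (Ccr2) in dense bins, 0.055 to 1.55 for Ccr2 dense minus low, and 0.39 to 0.60 for the log2 ratio of Ccl3 to Ccl4 in low bins. Ranges that crossed 0 were -0.40 to 0.23 (Ccl3) and -1.26 to 0.18 (Ccr2) for combination minus CpG-STAT3ASO, -0.051 to 0.67 for Ccr2 with anti-PD1 on average, -0.23 to 1.74 in intermediate and -0.15 to 1.85 in dense bins for Ccr2 in combination minus anti-PD1, and -0.69 to 0.80 for its dense-low difference. Others were -0.16 to 0.48 for Ccl4 per myeloid molecule, and for closeness -0.085 to 0.026 (Ccl3 to Cd68), -0.041 to 0.056 (Ccl4 to Adgre1) and -0.074 to 0.079 (Ccl4 to Cd68). Differences in the share with others nearby ranged from -5.60 to 1.93 points (Ccl4 with Ccl4), -7.38 to 3.97 (Ccl3 with Ccr2), -8.60 to 3.57 (Ccl4 with Ccr2) and -0.084 to 1.80 (Ccr2 with Ccl4). Ccl3 kept its call without each of 8 sections over whole sections and in dense bins.

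The replicate numbers did not pair sections: deviations of same-numbered sections correlated from -0.53 to 0.59 over 100 genes. With the replicate block, 41 instead of 43 genes were called for the average effect. The blocked value was 1.31 for Ccl4 (adjusted p = 0.0523 by limma) and 2.09 for Ccr2 in dense bins (adjusted p = 0.0517), and adjusted p = 0.0643 for Ccl3 between combination and anti-PD1 in low bins, all 3 no longer past the threshold.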
